A study of Homo sapiens with 8 samples.

Results

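The genes described here are MYC, its partner MAX and 34 genes of ribosome biogenesis and growth, a list of 36 symbols grouped by their known roles. Of the 36 symbols, 34 had at least 1 probe on the array, 52 probes in all out of 39421, and GNL3 and WDR43 had no probe named in the platform annotation. All RNA came from SEM, an established MLL/AF4-positive leukaemia line of B-cell precursors. The cells received siRNA to the fusion mRNA (siMLL/AF4) or a control siRNA (siCtrl) by electroporation every 2 days, 3 times at most, and were collected on days 2, 4 and 6. Cells given the pulse without siRNA (MOCK) were collected on days 2 and 4. Every treatment and day had 1 Illumina bead array, 8 in all, and all samples are 1 cell line, so a treatment is followed over days and not over separate cultures. The p-values below therefore measure the spread between days and arrays.

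MYC is a transcription factor that binds DNA as a dimer with MAX and raises cell growth. Among its best known targets are genes for making ribosomes: RNA polymerase I and its factors copy the ribosomal DNA, small nucleolar ribonucleoproteins (snoRNPs) guide the cutting and chemical modification of the transcript, and assembly factors build the small and the large subunit around it. Enzymes of polyamine synthesis such as ODC1 and SRM are further targets taught as examples. In leukaemia with MLL fusions, MYC is known as one of the genes through which the fusion sustains growth.

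The hexamer CACGTG (the E-box) is the DNA sequence that a MYC and MAX dimer prefers, and it equals its own reverse complement, so 1 search covers both strands. RefSeq promoter windows (GRCh38.p14), from 250 bases before to 50 bases after a transcript start, were at hand for 30 of the 36 genes. The hexamer stood in 12 of their 39 windows (30.8%), against 2548 of 35116 windows of all genes (7.26%). The 3 promoter stretches below are shown because this motif is the one that MYC and MAX are known to bind. The hexamer is in capitals. Positions are counted from the first base of the window's transcript, which for ODC1 and BYSL lies inside the annotated gene. ODC1 carries it at -29 and at 6 (chr2:10447993-10448112, minus strand), BYSL at 29 (chr6:41921515-41921544, plus strand) and FBL at 7 (chr19:39846360-39846479, minus strand).
ODC1: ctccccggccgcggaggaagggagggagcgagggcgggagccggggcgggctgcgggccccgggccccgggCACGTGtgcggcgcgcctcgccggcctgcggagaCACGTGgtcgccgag
BYSL: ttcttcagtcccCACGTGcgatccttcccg
FBL: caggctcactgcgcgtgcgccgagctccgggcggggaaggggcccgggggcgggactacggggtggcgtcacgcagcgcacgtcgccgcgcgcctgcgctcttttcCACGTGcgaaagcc
The other windows with the hexamer belonged to GNL3, IPO4, MRTO4, NOP2, PES1, RRP9, SRM, UTP20 and WDR43. A match of these letters is a description of the sequence, and no binding was measured.

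Levels are given as log2, under the reading that the deposited values are natural logs. Should the base be 2, all levels and differences shrink to 0.693 of those given and fewer genes reach 2-fold. Both day 6 samples were run on a newer array version, and therefore each difference was taken within a day. A change of these differences from the earlier days to day 6 still cannot be told apart from the array version. Across probes, the siMLL/AF4 array of day 6 had the lowest median Spearman correlation with the older arrays (0.861), followed by siCtrl on day 6 (0.907), while the older arrays lay between 0.944 and 0.961 among themselves. In the label check, KMT2A, the gene that gives the MLL part of the fusion, was lower with siMLL/AF4 by -0.49, -0.55 and -0.53 on days 2, 4 and 6. The AFF1 (AF4) probes were lower by -0.35, -1.37 and -2.00 and by -2.02, -1.21 and -0.51. Of 12 markers of B-cell precursors 6 were measured on all 8 arrays, EBF1 the brightest with a mean of 11.55. Of 8 myeloid markers 3 were measured, CEBPA the brightest with a mean of 11.96. Of the T and NK cell markers 2 of 8 were measured, and of the erythroid markers 0 of 8. The summed linear level of the myeloid markers ran from 5227 to 6578 in MOCK, 3456 to 6680 in siCtrl and 2291 to 6734 in siMLL/AF4, and that of the B-cell markers from 8255 to 12630, 8227 to 9668 and 8781 to 10750. Their part in the differences below was not tested. In RNA from whole cultures, fewer cells of a kind and less RNA per cell cannot be told apart.

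The main question was how these genes stood after knock-down of the fusion. On day 2 the members were split, with 13 of 32 tested members lower in siMLL/AF4 than in siCtrl (45.0% of all 9096 genes tested were lower). On day 4, 21 members were lower (51.8% of all genes), and on day 6, 24 members (55.1% of all genes). Their median difference was 0.099 on day 2, -0.20 on day 4 and -0.28 on day 6, against 0.091, -0.019 and -0.068 over all genes. With the mean of a gene's probes in place of the brightest, the median of day 4 was -0.046. Day 6 lay below day 2 for 26 of the 32 members (56.9% of all genes), and 11 members stepped down from day 2 to day 4 to day 6 (26.4% of all genes). In these counts day 6 and the newer array version cannot be told apart.

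Averaged over the days the members' median was -0.17 (-0.0054 over all genes), with 21 of 32 below 0, but no member passed the test. The limma test with time point as a block called 0.00% of all genes at an adjusted p of 0.05, and 7.39% had an unadjusted p below 0.05, among them 1 member, POLR1B. The lowest adjusted p of a member was 0.655, and that of any gene 0.31. Without day 6, in a fit that UTP20 also entered, the median of the members was 0.073 and 15 members were lower. The share of all genes lower there was not counted. The sign of the shift thus rested on the pair of arrays that correlated least with the rest. IPO4, MAX, NOP16, NOP56, POLR1A, POLR1B, RRN3 and RRP12 were lower on all 3 days, 8 of 32 members against 14.6% of all genes. MYC, NOP58 and PPAN were higher on all 3 days, 3 of 32 against 14.6%.

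**Figure D1:**
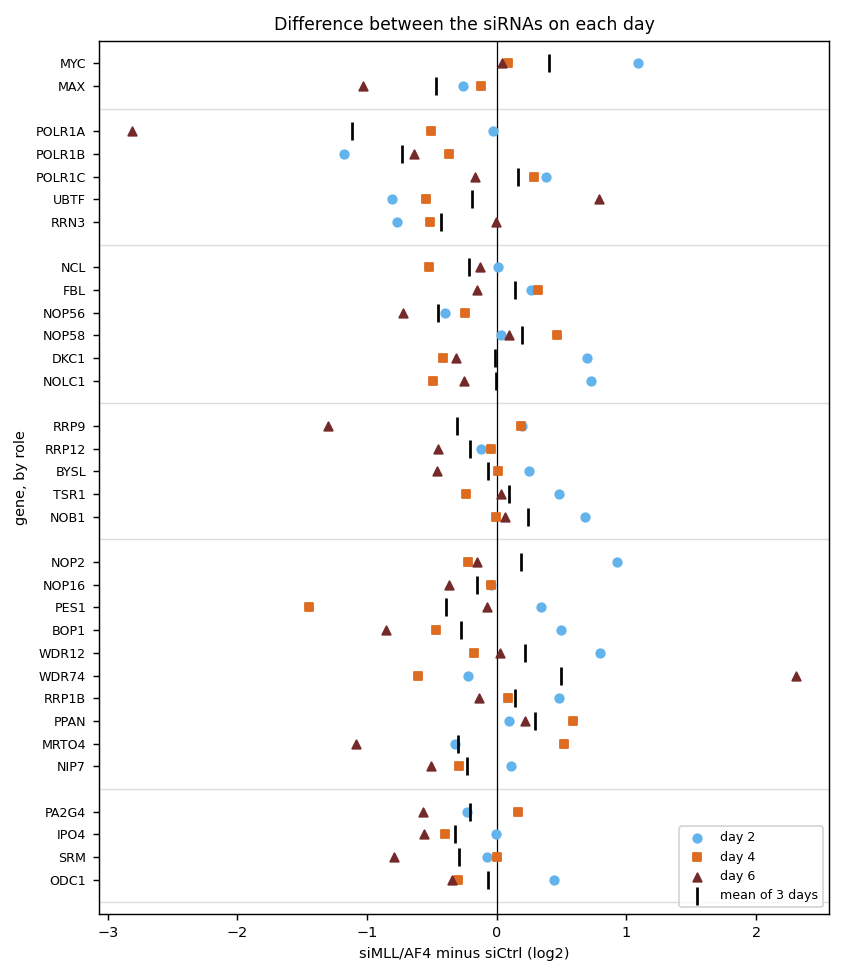
Difference siMLL/AF4 minus siCtrl (log2, x axis) for the 32 tested members, ordered by role (y axis). Circles, squares and triangles are days 2, 4 and 6, 1 pair of arrays each, and the black bar is the mean of the 3 days. Triangles lie left of 0 for 24 members and circles for 13, with POLR1A at -2.81 and WDR74 at 2.31 on day 6 as the points farthest out.

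Differences of 2-fold or more on a single day, which have no replicate and no test, were few. MYC was the 1 member at least 2-fold higher on day 2 (7.42% of all genes) and POLR1B the 1 member at least 2-fold lower (7.08%). On day 4 PES1 alone was at least 2-fold lower (4.46%) and 0 members were higher (5.46%). On day 6 MAX, MRTO4, POLR1A and RRP9 were at least 2-fold lower, 4 of 32 against 11.0% of all genes, and WDR74 was 1 member at least 2-fold higher (7.96%).

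MYC was not lower after knock-down of the fusion on any day at its brighter probe. This probe, ILMN_1680618, read 12.50, 12.73 and 12.12 with siCtrl and 13.59, 12.81 and 12.16 with siMLL/AF4 on days 2, 4 and 6, and 12.40 and 12.21 in MOCK on days 2 and 4. The siMLL/AF4 array of day 2 stood above every other array, while the remaining siMLL/AF4 values lay within 0.1 of siCtrl of the same day. The differences of 1.09, 0.085 and 0.039 averaged 0.40 ± 0.31 (SE, n = 3 days; limma, adjusted p = 0.848). Without day 2 the mean was 0.062, and without day 6 it was 0.59.

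The second MYC probe, ILMN_2110908, read 10.51, 10.56 and 11.70 with siCtrl, 10.66, 10.60 and 11.55 with siMLL/AF4, and 9.97 and 9.87 in MOCK. Its differences between the siRNAs were 0.15, 0.039 and -0.15, so the day 2 excess of the brighter probe was not of the same size there. The 2 probes also moved apart on the newer array version, where ILMN_2110908 read higher than on the older arrays with both siRNAs and ILMN_1680618 read lower.

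MAX, which MYC needs to bind DNA, had 4 probes, and they disagreed. The brightest on the 6 siRNA arrays, ILMN_2363426, read 6.69, 7.46 and 9.08 with siCtrl, 6.43, 7.34 and 8.05 with siMLL/AF4, and 7.11 and 7.31 in MOCK. It was lower with siMLL/AF4 on all 3 days, by -0.47 ± 0.28 on average (SE, n = 3; limma, adjusted p = 0.797). Probe ILMN_1704236 differed by 0.35, 0.68 and -0.98, ILMN_1802457 by -0.58, 0.45 and -2.78, and ILMN_1706546, which read as low as 1.02, by 1.91, -3.12 and -1.64. All 4 probes were lower with siMLL/AF4 on day 6, and only 1 was lower on each earlier day as well. With the older arrays alone ILMN_1704236 is the brightest probe, and MAX then differed by 0.52.

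**Figure D2:**
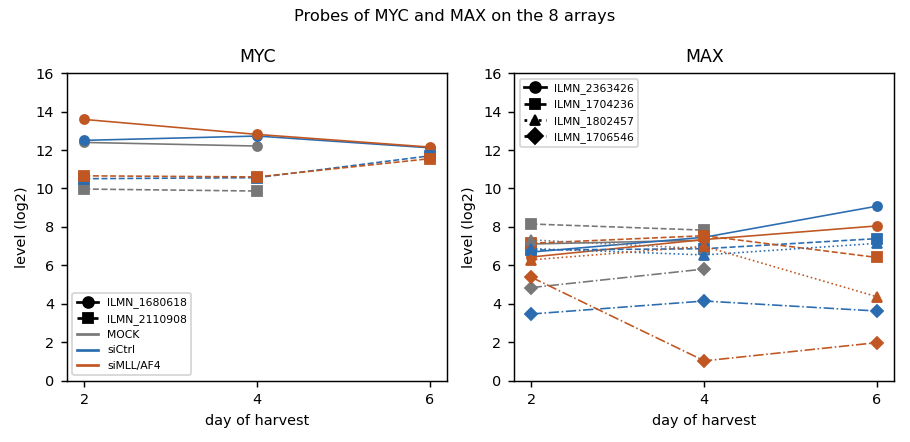
Level (log2, y axis) against day of harvest (x axis) for the 2 probes of MYC (left) and the 4 probes of MAX (right). Each point is 1 array, grey for MOCK, blue for siCtrl and orange for siMLL/AF4, and marker shapes and line styles tell the probes apart. The MYC probe ILMN_1680618 stands at 13.59 with siMLL/AF4 on day 2, above all other arrays, and the MAX probes of siMLL/AF4 on day 6 lie below those of siCtrl.

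Among the 5 members that transcribe ribosomal DNA, 4 were lower on average. The medians of the group were -0.77, -0.51 and -0.17 on days 2, 4 and 6. That order is the reverse of the one for the members as a whole, but the genes did not share it. The differences of RRN3 and UBTF rose over the days, those of POLR1A and POLR1C fell, and that of POLR1B did neither. POLR1B, the second largest subunit of RNA polymerase I, read 7.52, 7.01 and 6.09 with siCtrl, 6.34, 6.65 and 5.45 with siMLL/AF4, and 6.69 and 5.79 in MOCK. Both siRNA series overlapped, but within each day siMLL/AF4 was lower, by -1.18, -0.36 and -0.64. The mean of -0.73 ± 0.27 (SE, n = 3) had the lowest p of all members and did not pass the adjustment over all genes (limma, adjusted p = 0.655). Its dimmer probe, ILMN_2067101, differed by -0.81, -0.99 and 0.13. Against MOCK the siMLL/AF4 arrays of POLR1B differed by -0.35 and 0.86, and siCtrl by 0.83 and 1.22, so MOCK and siMLL/AF4 did not separate.

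POLR1A, the largest subunit, read 5.47, 5.01 and 5.87 with siCtrl, 5.44, 4.51 and 3.05 with siMLL/AF4, and 2.90 and 5.25 in MOCK. Its differences were -0.026, -0.51 and -2.81, and without day 6 the mean went from -1.12 to -0.27. The probe is dim, with 2.90 and 3.05 below the lower quartile of all values (3.48), and with offsets of 16 and 64 on the linear scale its mean was -0.65 and -0.31. The MOCK array of day 2 was as low as siMLL/AF4 on day 6, so the probe moved by over 2 log2 units between arrays that share a treatment. RRN3, which brings the polymerase to the promoter, read 6.94, 6.75 and 8.37 with siCtrl and 6.17, 6.24 and 8.36 with siMLL/AF4, a difference of -0.77, -0.51 and -0.0083. Its MOCK values were 6.34 and 5.79, close to siMLL/AF4 on day 2.

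UBTF, the factor that marks and opens active ribosomal DNA, differed by -0.81, -0.55 and 0.79. Its brightest probe, ILMN_1806946, read 8.40, 8.03 and 7.49 with siCtrl, 7.59, 7.49 and 8.28 with siMLL/AF4, and 8.27 and 8.59 in MOCK. The sign thus turned on day 6, where probe ILMN_2394264 differed by 0.25 and probe ILMN_2287147 by -2.81. POLR1C, a subunit that RNA polymerases I and III share, differed by 0.38, 0.29 and -0.17 at one probe and by -0.20, -0.18 and -0.16 at the other. None of these members passed the test.

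Among the 6 tested snoRNP proteins and nucleolar chaperones the group medians were 0.15, -0.33 and -0.20 on days 2, 4 and 6, and none passed the test. On day 4 FBL and NOP58 were higher with siMLL/AF4 and the others lower. NOP56, a core protein of the box C/D snoRNPs that guide RNA methylation, had the lowest p of them and 3 measured probes. At ILMN_1787628 it read 12.71, 12.40 and 12.76 with siCtrl, 12.31, 12.15 and 12.04 with siMLL/AF4, and 12.22 and 12.52 in MOCK. The difference of -0.40, -0.25 and -0.72 averaged -0.46 ± 0.24 (SE, n = 3, limma, adjusted p = 0.754). On day 6 the other NOP56 probes differed by -1.05 and -0.90, and on days 2 and 4 they lay between -0.16 and 0.21.

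NOP58, the partner of NOP56 in the same particle, was higher with siMLL/AF4 on all days, by 0.032, 0.46 and 0.092. It read 8.99, 9.41 and 11.51 with siCtrl and 9.02, 9.88 and 11.61 with siMLL/AF4, against 8.85 and 9.05 in MOCK. The step up on day 6 appeared with both siRNAs, and there the newer array version and the day cannot be told apart. FBL, the methyltransferase of these particles, read 10.23, 10.51 and 11.07 with siCtrl, 10.49, 10.83 and 10.91 with siMLL/AF4, and 10.97 and 11.02 in MOCK, so the siRNAs differed by 0.26, 0.31 and -0.15.

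DKC1, the pseudouridine synthase of the box H/ACA snoRNPs, and NOLC1, a chaperone of snoRNPs, shared a turn of sign after day 2. Members of other roles also turned from higher on day 2 to lower on day 4, and the share of all genes was not counted. DKC1 read 12.23, 12.67 and 12.25 with siCtrl and 12.93, 12.25 and 11.94 with siMLL/AF4, a difference of 0.70, -0.42 and -0.31. NOLC1 read 10.37, 10.43 and 9.10 with siCtrl and 11.10, 9.94 and 8.85 with siMLL/AF4, a difference of 0.73, -0.49 and -0.25. Both means over the days were near 0 (-0.012 and -0.0038), which hides daily differences of opposite sign. NCL (nucleolin), an abundant RNA-binding protein of the nucleolus, differed by 0.0065, -0.53 and -0.13 at its brightest probe and by 0.52, 0.51 and -0.32 at the other.

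NPM1 (nucleophosmin), another chaperone of the nucleolus, could not be tested. Its 1 probe, ILMN_2379762, had no value in MOCK and siMLL/AF4 on day 2, and for these missing values it entered no fit. On the other arrays it read between 1.81 and 4.30.

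Of the 5 tested members that build the small subunit, 3 were lower on day 6 (beside 55.1% of all genes, as for each role below), and the group medians were 0.25, -0.0095 and -0.45. RRP9, a protein of the snoRNP needed for early cuts in the precursor RNA, read 6.69, 6.98 and 6.07 with siCtrl, 6.89, 7.17 and 4.77 with siMLL/AF4, and 7.13 and 6.94 in MOCK. Its difference was 0.20, 0.19 and -1.30, so the lower mean of -0.30 came from day 6, and without that day it was 0.19. BYSL (bystin), an assembly factor with the hexamer shown above, read 9.45, 9.50 and 9.59 with siCtrl, 9.70, 9.51 and 9.12 with siMLL/AF4, and 9.91 and 10.16 in MOCK. The difference of 0.25, 0.013 and -0.46 stepped down each day, and both MOCK arrays lay above all siRNA arrays.

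RRP12, which helps to move pre-ribosomal particles, was lower on all days by -0.12, -0.047 and -0.45. It read 9.20, 8.85 and 8.72 with siCtrl and 9.07, 8.80 and 8.27 with siMLL/AF4. TSR1, a late factor of the small subunit, differed by 0.48, -0.23 and 0.033 at its brightest probe, and its dimmer probe differed by 2.06, -0.11 and -3.38. NOB1, the nuclease that makes the final cut of the small subunit RNA, differed by 0.68, -0.0095 and 0.064. UTP20, part of the early small subunit particle, read 6.38, 6.18 and 2.59 with siCtrl, 4.60, 5.41 and 2.31 with siMLL/AF4, and 4.70 and 2.55 in MOCK. It was too dim on the newer arrays to enter the knock-down test.

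The 10 members that build the large subunit were split 5 to 5 in the mean over days, and 7 were lower on day 6. Their group medians were 0.22, -0.20 and -0.15. PES1, BOP1 and WDR12 form 1 complex that the large subunit needs. All of them were higher with siMLL/AF4 on day 2 (by 0.34, 0.50 and 0.80) and lower on day 4 (by -1.45, -0.47 and -0.18). These signs were not particular to the complex: NOP2, NIP7, DKC1, NOLC1, NCL, TSR1, NOB1 and ODC1 had them too at the probe tested. The share of all genes with these signs was not counted. BOP1 went further down to -0.85 on day 6, whereas PES1 and WDR12 differed by -0.074 and 0.027 there. BOP1 read 10.82, 10.93 and 11.12 with siCtrl, 11.31, 10.46 and 10.27 with siMLL/AF4, and 10.77 and 10.64 in MOCK, so MOCK lay inside the siMLL/AF4 range.

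PES1 read 5.55, 5.95 and 7.77 with siCtrl, 5.89, 4.50 and 7.70 with siMLL/AF4, and 6.37 and 6.52 in MOCK. A single low array, siMLL/AF4 on day 4, made its mean of -0.39, which was 0.13 without that day. WDR12 read 10.07, 10.64 and 10.03 with siCtrl and 10.87, 10.46 and 10.06 with siMLL/AF4, and its second probe differed by -0.11, -0.039 and 0.10.

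NOP2, a methyltransferase of the large subunit RNA, read 10.90, 11.16 and 10.26 with siCtrl and 11.83, 10.94 and 10.11 with siMLL/AF4. Its differences were 0.93, -0.22 and -0.16, and its second probe differed by -0.17, 0.17 and -0.067. RRP1B read 9.71, 9.03 and 8.60 with siCtrl and 10.19, 9.12 and 8.47 with siMLL/AF4, a difference of 0.48, 0.088 and -0.14. NIP7 differed by 0.11, -0.30 and -0.51. At the brightest probe NOP2, RRP1B and NIP7 were, like the group median, highest relative to siCtrl on day 2. RRP1B and NIP7 were lowest on day 6, the group median on day 4.

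Among these large subunit members WDR74 and MRTO4 had the widest differences on day 6, in opposite directions. WDR74, an assembly factor, read 6.13, 7.98 and 7.38 with siCtrl, 5.90, 7.37 and 9.69 with siMLL/AF4, and 7.10 and 6.90 in MOCK. Its difference of -0.22, -0.61 and 2.31 gave a mean of 0.49, and -0.42 without day 6. MRTO4, which holds the place of the ribosomal stalk during assembly, read 8.86, 8.89 and 9.73 with siCtrl and 8.53, 9.42 and 8.65 with siMLL/AF4, a difference of -0.33, 0.52 and -1.09.

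PPAN was higher with siMLL/AF4 on each day, by 0.091, 0.59 and 0.22, and read 8.98, 8.55 and 8.86 with siCtrl and 9.07, 9.14 and 9.08 with siMLL/AF4. The mean difference of 0.30 ± 0.24 (SE, n = 3) did not pass the test (limma, adjusted p = 0.852). MOCK read 9.42 and 9.47, above both siRNAs. NOP16 was lower on each day by -0.042, -0.045 and -0.37.

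The 4 growth genes were all lower on day 6, with group medians of -0.043, -0.15 and -0.56 over the days. IPO4, an importin that carries ribosomal proteins into the nucleus, read 9.24, 8.71 and 8.85 with siCtrl, 9.23, 8.31 and 8.29 with siMLL/AF4, and 9.34 and 9.14 in MOCK. It differed by -0.0061, -0.40 and -0.56, and its mean of -0.32 ± 0.24 (SE, n = 3) did not pass the test (limma, adjusted p = 0.846). SRM, the spermidine synthase, read 9.90, 9.91 and 10.65 with siCtrl, 9.82, 9.91 and 9.86 with siMLL/AF4, and 10.72 and 10.92 in MOCK. Its difference was within 0.1 on days 2 and 4 and -0.79 on day 6. The siMLL/AF4 arrays stayed within 0.1 of each other over the days, with day 6 on the newer array version.

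ODC1, the first enzyme of polyamine synthesis and the member with a pair of hexamers in its promoter, differed by 0.44, -0.30 and -0.35. It read 13.30, 12.92 and 12.69 with siCtrl, 13.74, 12.62 and 12.34 with siMLL/AF4, and 13.34 and 13.26 in MOCK. Its level was thus lower on each later day with both siRNAs, though on day 6 the newer array version and the day cannot be told apart. PA2G4, a growth regulator of the nucleolus, read 11.25, 11.13 and 12.04 with siCtrl and 11.02, 11.30 and 11.47 with siMLL/AF4, a difference of -0.23, 0.17 and -0.57.

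**Figure D3:**
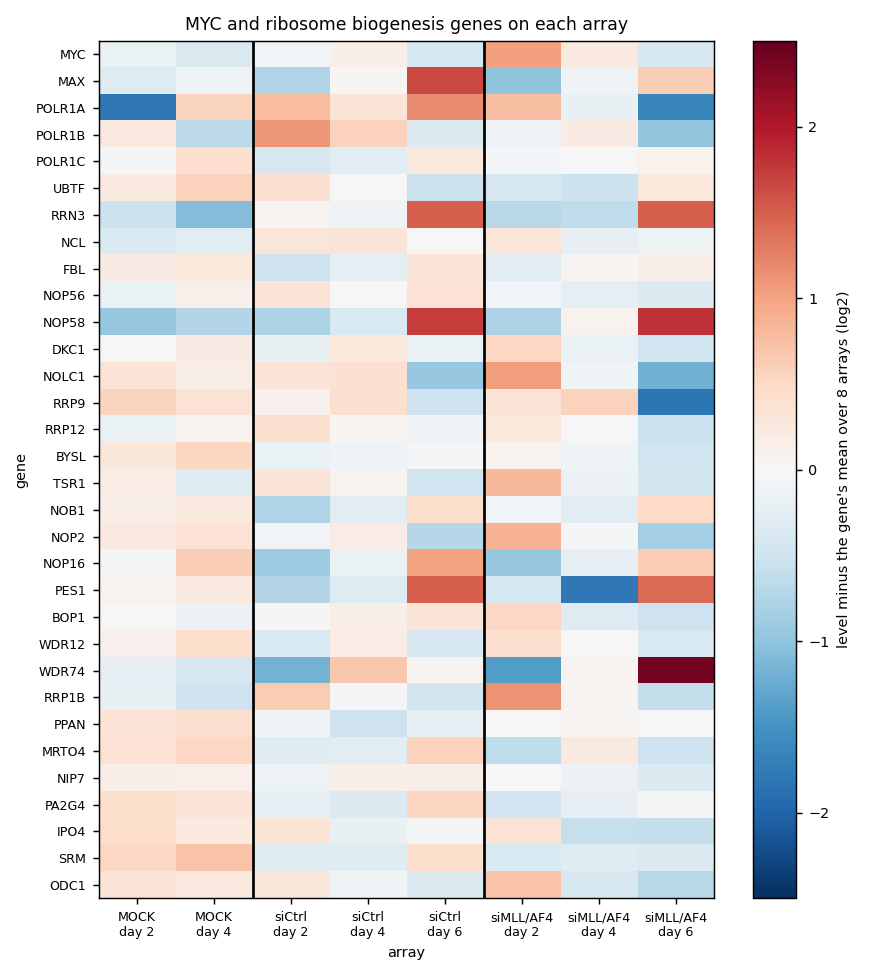
Level of each tested member on each of the 8 arrays minus the gene's own mean over the arrays (log2, colour), with genes in rows by role and arrays in columns. Colours compare arrays within a row and not genes with each other. The siMLL/AF4 array of day 6 is the highest of its row for WDR74 (9.69) and the lowest for RRP9 (4.77), and NOP58 is high on both day 6 arrays (11.51 and 11.61).

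None of the other genes of the same pathways passed the adjusted test, in which no gene at all was called. Among other large subunit factors 30 of 41 tested genes were lower on day 6 (55.1% of all genes were), with a median of -0.17 that day and 0.016 over the days. In the mean over days, where the median of all genes was -0.0054, 18 were lower and 23 higher. FTSJ3 (0.48) and GNL1 (0.40) stood at the upper end. MDN1, a large ATPase of subunit release, was lower by -1.08 ± 0.38 (SE, n = 3) and PELP1 by -0.67 ± 0.23 (limma, adjusted p = 0.648 and 0.634). Among other small subunit factors 20 of 39 were lower in the mean, and DDX49, an RNA helicase, was higher on every day by 1.12, 1.57 and 0.97 (limma, adjusted p = 0.496).

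Of other RNA polymerase I factors 10 of 13 were lower in the mean, TAF1D being 1.35 ± 0.57 higher (SE, n = 3; limma, adjusted p = 0.681). The medians of these 13 factors were 0.039, 0.11 and -0.25 on days 2, 4 and 6. Of other snoRNP proteins 5 of 10 were lower, and of polyamine enzymes and regulators 5 of 7. SAT1, which breaks polyamines down, was higher by 0.53, 0.34 and 0.92. In the MYC network 5 of 7 genes were lower. MXD3 and MXD4, repressors of 1 family that compete with MYC for MAX, lay on opposite sides. MXD4 was higher on every day by 1.39, 0.65 and 0.66, with a mean of 0.90 ± 0.27 (SE, n = 3; limma, adjusted p = 0.586), and MXD3 was lower on every day by -0.56, -0.19 and -0.86, with a mean of -0.54 ± 0.25 (limma, adjusted p = 0.73). Of 22 other MYC-responsive metabolic genes 19 were lower on day 6, beside the same 55.1% of all genes, and 15 in the mean, TFRC, the transferrin receptor, by -0.42, -0.69 and -0.47.

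The next question was whether the difference between the siRNAs changed with day, fitted as a slope per day. No member passed this test, in which 0.00% of all genes had an adjusted p under 0.05 and 12.0% an unadjusted one, among them 1 of 32 members. That member, POLR1A, had a slope of -0.70 ± 0.18 per day (SE, 6 arrays; limma, adjusted p = 0.305). MYC had a slope of -0.26 ± 0.15 (limma, adjusted p = 0.562) and WDR74 one of 0.63 ± 0.26 (limma, adjusted p = 0.442). This fit has 1 residual degree of freedom, and in it day 6 and the newer array version cannot be told apart. WDR74 passed in 3 alternative settings (limma, adjusted p = 0.00182 to 0.0178). Those settings called 349, 435 and 386 genes in all, the last of these out of 9096 tested.

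Both siRNAs were also set against the pulse alone, on days 2 and 4, to see what siRNA of either kind went with. Members lay on both sides of MOCK: NOP16 and SRM, for example, were lower with both siRNAs on both days, and MYC, NCL, NOP58, RRP1B and TSR1 were higher. With siCtrl, 14 of 32 members were below MOCK on both days (40.2% of all 8886 genes tested) and 8 above (34.0%). With siMLL/AF4, 13 were below (30.2%) and 5 above (35.8%). These comparisons share the MOCK arrays. The medians of the members were -0.24 and -0.15 with siCtrl on days 2 and 4 (-0.11 and -0.014 over all genes) and -0.14 and -0.30 with siMLL/AF4 (0.11 and 0.00 over all genes).

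No member passed the adjusted test against MOCK with either siRNA, nor did any other gene (0.00% called in each). At an unadjusted p under 0.05 there were 6 of 32 members with siCtrl, NOB1, NOP16, POLR1B, PPAN, RRP1B and SRM, against 19.9% of all genes. With siMLL/AF4 there were likewise 6, MYC, NOP16, PA2G4, PES1, RRP1B and SRM, against 21.4%, so neither share of the members stood off from that of all genes.

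NOP16, a large subunit factor known as a MYC target, read 9.01 and 9.65 in MOCK on days 2 and 4, 8.12 and 8.86 with siCtrl, and 8.08 and 8.81 with siMLL/AF4. On each day both siRNAs lay below MOCK by nearly the same amount, -0.89 and -0.79 with siCtrl and -0.93 and -0.84 with siMLL/AF4 (limma, adjusted p = 0.21 and 0.161). SRM lay below MOCK by -0.82 and -1.01 with siCtrl and by -0.90 and -1.01 with siMLL/AF4 (limma, adjusted p = 0.222 and 0.162). For both genes all 4 siRNA arrays of days 2 and 4 were below the MOCK array of their day.

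PA2G4 read 11.93 and 11.83 in MOCK and was below it by -0.68 and -0.70 with siCtrl and by -0.91 and -0.53 with siMLL/AF4. RRP1B went the other way, from 8.89 and 8.55 in MOCK to 0.82 and 0.49 above with siCtrl and 1.30 and 0.57 above with siMLL/AF4. MYC was above MOCK by 0.11 and 0.52 with siCtrl and by 1.20 and 0.61 with siMLL/AF4 at its brighter probe. At the second MYC probe the differences were 0.54 and 0.70 with siCtrl and 0.69 and 0.73 with siMLL/AF4. The fitted difference of siMLL/AF4 from MOCK was 0.81 ± 0.32 for MYC (SE, 8 arrays; limma, adjusted p = 0.219).

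**Figure D4:**
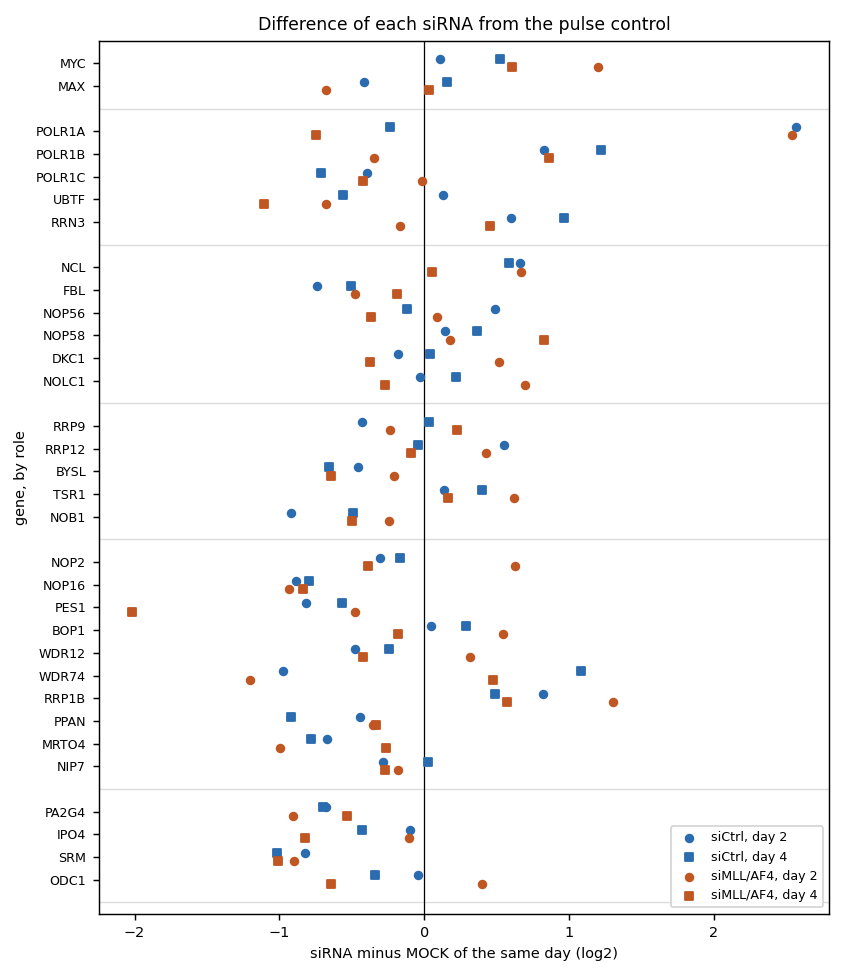
Difference of each siRNA from MOCK of the same day (log2, x axis) for the 32 tested members by role (y axis), siCtrl in blue and siMLL/AF4 in orange, circles for day 2 and squares for day 4, 1 pair of arrays each. For NOP16 and SRM all 4 points lie between -0.79 and -1.01, and for MYC all 4 lie above 0. POLR1A stands at 2.57 and 2.54 on day 2, where its MOCK array read 2.90.

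From day 2 to day 4, all on the older array version, 4 of 33 members were lower in all 3 treatments (20.6% of all 10230 genes) and 6 were higher in all (20.4%). The limma test called 0.00% of all genes, and 2 members, NOP16 and RRP1B, had an unadjusted p under 0.05 (10.4% of all genes). NOP16 was higher on day 4 by 0.64, 0.74 and 0.74 in MOCK, siCtrl and siMLL/AF4 (mean 0.71 ± 0.20, SE; limma, adjusted p = 0.461). RRP1B was lower by -0.34, -0.68 and -1.07 (mean -0.70 ± 0.24, SE; limma, adjusted p = 0.461). The other members with 1 sign throughout were IPO4, ODC1 and TSR1, lower, and FBL, MRTO4, NOP58, POLR1C and SRM, higher. MYC at its brighter probe differed by -0.19, 0.23 and -0.78, so its lower level on day 4 in siMLL/AF4 was not shared by siCtrl. Its second probe did not show a fall of that size, reading 10.66 and 10.60 with siMLL/AF4 on days 2 and 4.

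Likeness to MYC was taken at its brighter probe, ILMN_1680618, alone. The second probe, whose day 2 difference between the siRNAs was 0.15 against 1.09, was not used. After the mean of each time point was taken off, the members closest to MYC over the 8 arrays were TSR1 (Pearson r = 0.93), RRP1B (r = 0.85) and NOLC1 (r = 0.69). UBTF was lowest (r = -0.74). These are descriptions over 8 arrays that share days and array versions, and for MYC and those 3 genes the siMLL/AF4 array of day 2 was the highest of all. Several probes of 1 gene did not always tell the same story: of 11 members with more than 1 probe measured on all 6 siRNA arrays, 7 had probes whose mean differences between the siRNAs had opposite signs (MAX, NCL, NOP2, POLR1C, TSR1, UTP20 and WDR12).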

How the data were processed

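Biotin-labelled total RNA was measured on Illumina bead arrays, per the labels. The authors used GenomeStudio, as the submitters' processing notes list it. How background and normalization were handled is not given in the sources used here. Values deposited by the authors were read as natural log levels, which no source states and which rests on their range (the brightest probe is 38664 on the linear scale as a natural log and 1512 as a log to base 2). Array medians agree (5.156 to 5.159 as log2), and 28.5% to 28.8% of entries per array are Null and were treated as missing.

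Dividing by the natural log of 2 gave log2 levels. Symbols came from the platform annotation, updated through Entrez identifiers (27177 of 27210 probes with 1 symbol). Tests took probes measured on every array of the fit whose mean reached the median probe of each array version (Null entries set lowest for that median), and each gene was read at its brightest probe. Of the 36 listed genes 32 were tested for the knock-down and against MOCK and 33, with UTP20, for day 4 against day 2, and NPM1, GNL3 and WDR43 were tested in none. Tests used limma 3.58.1 in R 4.3.3, two-sided, with Benjamini-Hochberg adjustment over all genes at 0.05: the knock-down on 6 arrays with time point as a block (2 residual degrees of freedom), both siRNAs against MOCK with the same block on all 8 arrays (so that these fits also use the day 6 pair), and day 4 against day 2 on the 6 older arrays with treatment as a block. Time point numbers come from the labels, and same-numbered arrays deviated together (correlations of 0.47, 0.28 and 0.62 over 9096 genes). Each model was tested on simulated data. Any member could be named, and other genes only as the 2 highest and 2 lowest of a pathway list. The members and lists were chosen with earlier results of these data known. Alternatives covered offsets, filters, scaling, probe averaging, variance, left-out time points, no block and other controls. The number of arrays limits the precision.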

Additional observations from a re-analysis of the deposited data

How the results depend on the processing

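The median difference of the members between the siRNAs, -0.17, kept its sign in all alternatives except one: it was 0.073 without day 6, and leaving out each time point gave -0.26 to 0.073. A change of log base only rescales the median and could not turn its sign. Scaling by quantiles or by a common median, on arrays whose medians already agreed, left it at -0.17. With offsets, filters, the mean of probes and MOCK as control the median was also below 0. It was -0.068 with the filter at the 70th percentile and -0.066 with that at the median of fully measured probes. Members other than MYC changed sign in 9 of 31 cases without day 6, 5 without day 2, 4 without day 4 and 14 with MOCK as control, and none was called. For siCtrl against MOCK the members' fitted median was 0.0068 without replicate 1 and -0.19 without replicate 3.

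Counts of genes called were 0 in every comparison of the report. For siCtrl against MOCK the count was 0 in all alternatives run, and with no filter on dim probes it was 0 in each comparison. In other settings the remaining comparisons gave calls. For the knock-down they were 41 with an offset of 64, 3 with an offset of 16, 19 with the filter at the 70th percentile, 15 with the filter at the median of fully measured probes and 32 with a trended robust variance. For the change with day these settings gave 349, 223, 435, 330 and 386, and for siMLL/AF4 against MOCK 420, 4, 97, 366 and 375. For day 4 against day 2 the offset of 64 gave 156, the fully measured filter 83 and the trended variance 95. The fully measured filter and, outside the knock-down, the offset of 16 were added after seeing the data. The cause was not tested. Of the members, these settings called WDR74 for the change with day (offset 64, 70th percentile, trended variance), SRM against MOCK with siMLL/AF4 (offset 64, fully measured filter, trended variance) and NOP16 in that comparison (the last 2 of these). With the trended variance, 386 of 9096 genes were called for the change with day, and WDR74 alone of 32 members. Against MOCK it called 375 of 8886 genes, and SRM and NOP16 of 32 members. Shares over all genes were not counted for the other settings. No member was called for the knock-down itself. Without the replicate block the knock-down count remained 0 and the median -0.17, since the balanced design fixes the latter. Leaving out a time point was not run for the change with day, which then has no residual degrees of freedom, nor for day 4 against day 2, where treatments were left out instead.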
